A study of Homo sapiens with 4 samples.

Results

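The human genome carries its largest group of replication-dependent histone genes on the short arm of chromosome 6. All protein-coding genes of GENCODE release 44 (hg38) that lie on chromosome 6 between 25.9 and 28 Mb and whose symbol begins with H1-, H2AC, H2BC, H3C or H4C were taken, which gave 53 of the 20007 protein-coding genes annotated. They comprise 6 genes for the linker histone H1, 11 for H2A, 14 for H2B, 10 for H3 and 12 for H4. Gaps of over 200 kb between neighbouring members split them into 3 subclusters, of 32 genes (H1-1 to H4C8), 5 genes (H2BC11 to H2AC12) and 16 genes (H2BC13 to H2BC17).

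ATAC-seq, in which a transposase cuts and tags open chromatin for sequencing, was run on HepG2 cells, an established line from a human liver carcinoma. The 4 libraries came from 50000 wild-type cells each. Of these, 2 came from cells labelled untreated and 2 from cells given 5 µM tazemetostat, dissolved in DMSO, for 48 h. The methods describe a DNase I pretreatment, against free DNA and DNA of dead cells, for tazemetostat-treated cells and do not mention the untreated ones. The part of this step in the results was not tested. Whether the untreated cells received the solvent is not given in the sources used here, and nothing says that replicates came from separate cultures, so the p-values measure only the spread between these libraries. Tazemetostat inhibits EZH2, the methyltransferase of polycomb repressive complex 2, which marks lysine 27 of histone H3 at silenced genes, and the question was where accessibility differed once the enzyme was inhibited.

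Nucleosomes are built of H2A, H2B, H3 and H4, with H1 bound to the linker DNA, and dividing cells make most of this protein in S phase from short genes without introns. Transcription of these genes is coordinated by NPAT at nuclear bodies that form on the clusters, and their mRNA ends in a stem-loop bound by SLBP instead of a poly(A) tail. Many H2A and H2B genes stand head to head and share the DNA between their starts as a promoter.

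Control replicates 1 and 2 had 17.2 and 23.8 M mapped tags, and tazemetostat replicates 1 and 2 had 19.8 and 26.6 M. Between 26133 and 34768 peaks were called in the controls and between 54157 and 55313 under tazemetostat, holding 4.32% and 5.69% of the tags in the controls against 11.51% and 9.81% under tazemetostat. The fragment length used for calling was 200 bp in both control libraries and 144 bp in both tazemetostat libraries, which cannot be told apart from the treatment. Of 12 hepatocyte and HepG2 marker genes, 10 or 11 had a peak within 1 kb in each library, and 5 had a peak over the start. For all protein-coding genes, 53.3% and 60% (controls) and 72.6% and 70% (tazemetostat) had a peak within 1 kb. A peak over the start was found at 25.3% and 31.3% (controls) and 40.8% and 38.5% (tazemetostat). Of 8 markers of blood, connective, endothelial, cardiac, neural and B cells, between 1 and 5 had a peak within 1 kb. No library had a peak over the start of any of these 8. PTPRC, COL1A1 and MYH6 had none in any library, as did the hepatocyte gene FGB, and the nearest regions of ALB and TTR were called only under tazemetostat. The part of these differences in the results was not tested.

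The promoters of the histone genes are short and carry motifs that differ by class. Of the 53 members, 48 matched the RefSeq promoter table (GRCh38.p14), which holds the 250 bases before and 50 after a start. The 5 without an entry were H4C1, H4C3, H2AC12, H3C11 and H3C12. Searched on both strands, TATAAA was found in 66.7% of the member promoters against 11.5% of the 35116 promoters of the table, and CCAAT in 85.4% against 34.6%. Every matched H1, H2A, H2B and H3 promoter held CCAAT, whereas 3 of the 10 H4 promoters did. The octamer ATTTGCAT, the site bound by POU-domain factors such as OCT1, was present in 8 of 10 H2A and 11 of 14 H2B promoters and in no H1, H3 or H4 promoter, with 1.77% of all promoters holding it. The H1 box AAACACA was present in all 6 H1 promoters and in no other member, against 5.64% of all promoters. The median GC content was 42.3% in the members and 58.7% over the table. These matches describe the letters in the windows and say nothing about which factors were bound in HepG2.

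One shared promoter and 3 single promoters are shown because the results below turn on them. The first runs between and includes the starts of H2BC8 (minus strand) and H2AC8 (plus strand), hg38 chr6:26216688-26216921, plus strand. The others are RefSeq windows on the strand of the gene, at chr6:26056421-26056720 (H1-2, minus), chr6:26234938-26235237 (H1-3, minus) and chr6:26045134-26045433 (H3C3, plus). Capitals mark matches to these 4 motifs on either strand.
H2BC8/H2AC8: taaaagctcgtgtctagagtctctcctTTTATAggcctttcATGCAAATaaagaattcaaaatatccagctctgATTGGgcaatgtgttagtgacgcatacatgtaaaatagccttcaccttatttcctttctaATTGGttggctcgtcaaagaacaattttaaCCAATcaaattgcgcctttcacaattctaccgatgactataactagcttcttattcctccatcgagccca
H1-2: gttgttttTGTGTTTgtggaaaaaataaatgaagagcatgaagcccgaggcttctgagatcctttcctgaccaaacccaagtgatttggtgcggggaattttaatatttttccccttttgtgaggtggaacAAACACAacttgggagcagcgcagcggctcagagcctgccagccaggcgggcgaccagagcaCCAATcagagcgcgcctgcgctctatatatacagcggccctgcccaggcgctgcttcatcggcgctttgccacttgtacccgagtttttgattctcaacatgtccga
H1-3: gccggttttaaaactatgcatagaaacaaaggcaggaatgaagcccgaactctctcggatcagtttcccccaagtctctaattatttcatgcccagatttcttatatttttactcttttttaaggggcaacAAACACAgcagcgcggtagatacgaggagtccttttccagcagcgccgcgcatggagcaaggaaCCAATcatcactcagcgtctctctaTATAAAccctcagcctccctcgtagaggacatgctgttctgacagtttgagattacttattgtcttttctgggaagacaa
H3C3: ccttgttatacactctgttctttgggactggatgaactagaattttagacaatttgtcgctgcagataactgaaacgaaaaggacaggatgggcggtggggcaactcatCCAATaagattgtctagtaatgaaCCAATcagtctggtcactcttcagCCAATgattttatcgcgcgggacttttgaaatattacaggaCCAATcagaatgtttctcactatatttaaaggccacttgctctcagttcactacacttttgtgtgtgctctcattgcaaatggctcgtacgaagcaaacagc

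To see which of these genes were accessible, each member was scored for a peak overlapping the gene or 1 kb on either side. A member had a peak in 37 and 38 of 53 cases in the control libraries and in 44 and 42 under tazemetostat. The means were 37.5 ± 0.707 and 43 ± 1.41 (SD, n = 2 each), and both tazemetostat libraries lay above both controls. Over all protein-coding genes the shares were 53.3% and 60% in the controls and 72.6% and 70% under tazemetostat. An exact permutation test of 2 against 2 libraries cannot reach 0.05, and none was run. The difference of 5.5 members shrank to 1.5 when each library was held to its 26133 highest peaks, with 37 and 38 members in the controls and 41 and 37 under tazemetostat. It turned to -1.5 when only peaks of at least 8-fold over the surrounding 10 kb were kept, but that left 8, 0, 4 and 1 members in the 4 libraries.

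**Figure D1:**
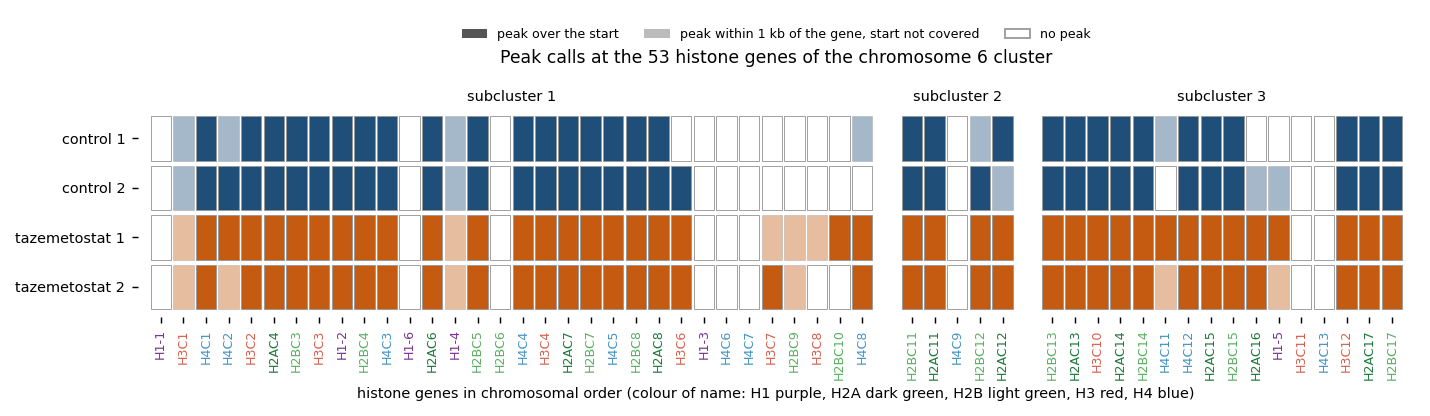
Peak calls at the 53 members in chromosomal order (columns) in the 4 libraries (rows), with control cells in blue and tazemetostat cells in orange. Full colour marks a peak over the start of the gene, pale colour a peak within 1 kb of the gene that leaves the start uncovered, and white no peak; 35 columns are filled in all 4 libraries and 9 in none.

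Most members were open in every library. A peak was present in all 4 libraries at 35 of 53 members, against 47.9% of protein-coding genes. The windows of these counts include the gene body, with a median of 495 bases at the members. The shares over all genes were not matched for gene length. Peaks covered the annotated start itself in all 4 libraries at 30 members, against 22% of protein-coding genes. By library, 31 and 33 starts were covered in the controls and 39 and 36 under tazemetostat, against 25.3%, 31.3%, 40.8% and 38.5% of all starts. The means were 32 ± 1.41 and 37.5 ± 2.12 (SD, n = 2 each), and the groups did not overlap. At 2 members (H4C8 and H2AC16) the start was covered in both tazemetostat libraries and no control, against 4.96% of protein-coding genes, and at 0 members in both controls alone, against 0.075%. The start of 13 members was covered in no library, against 55.5%.

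The open starts were counted by class, to be read against the 22% of protein-coding genes whose start was covered in all 4 libraries. Peaks covered the start in every library at 9 of 11 H2A genes and 10 of 14 H2B genes. The same held for 5 of 10 H3 genes and 5 of 12 H4 genes. Among the H1 genes it held for 1 of 6, H1-2. The counts by class share regions where neighbours stand close together and are descriptions of these lists.

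By subcluster, a peak was called in all 4 libraries at 20 of the 32 genes of subcluster 1, at 4 of 5 in subcluster 2 and at 11 of 16 in subcluster 3. The share over all protein-coding genes was 47.9%. A peak in both tazemetostat libraries and neither control was found at 2 members, H3C7 and H2BC9, against 6.59% of protein-coding genes. The reverse was found at 0 members, against 0.155%. In both tazemetostat libraries and 1 control it was found at 5 members (H3C6, H4C8, H4C11, H2AC16 and H1-5), against 12% of protein-coding genes. H3C8 and H2BC10 had a peak in tazemetostat replicate 1 alone, where 7.9% of protein-coding genes were called in 1 library only.

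No library had a peak within 1 kb of 9 members, against 22.3% of protein-coding genes. These were the H1 genes H1-1, H1-3 and H1-6 (the testis-specific H1), the H4 genes H4C6, H4C7, H4C9 and H4C13, the H3 gene H3C11 and the H2B gene H2BC6. H1-3, H4C6 and H4C7 are neighbours, and together with H3C7, H2BC9, H3C8 and H2BC10 they formed a run of 7 genes in subcluster 1 without a peak in either control. The promoter of H1-3 holds the H1 box, CCAAT and TATAAA, as printed above. For H2BC6 the RefSeq start lies 11702 bases from the GENCODE start, inside the searched window. A missing call is not a measured 0, since a peak list gives no value there.

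The linker histone genes were followed one by one. H1-2 was the only H1 gene with a peak over its start in every library. The start region of H1-2 (chr6:26056129-26056707) had normalised tag counts, in tags per 10 M mapped tags, of 12.8 and 17.6 in the controls and 33.3 and 23.7 under tazemetostat. The groups did not overlap, and the difference on the log2(normalised tag count + 1) scale was 0.86 (SE 0.31, limma, Benjamini-Hochberg adjusted p = 0.0338), but 0.65 without control replicate 1 (adjusted p = 0.134). A second region at its 3′ side (chr6:26054842-26055815) held 38.4 and 34 in the controls and 67.5 and 63.6 under tazemetostat, again without overlap (log2 difference 0.84, limma adjusted p = 0.0313). H1-4 had a call in every library only because a region beginning just past its 3′ end, 834 bases from its start, fell within 1 kb of it. That region covered the start of the next gene, H2BC5. At H1-5 the start was covered by a single peak of 9.07 in tazemetostat replicate 1, and its other region, over the neighbour H2AC16, was missed in control replicate 1.

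The 9 divergent H2A/H2B pairs, whose starts lie 169 to 250 bases apart, were open throughout. Each pair had 1 shared region that was called in all 4 libraries. A peak covered 17, 17, 18 and 18 of the 18 paired starts in the 4 libraries, and 16 in all of them. Over all protein-coding genes, 22% of starts were covered in all 4 libraries and 47.9% of genes had a peak in all 4. The starts of a pair lie close enough for 1 peak to cover both, so the 18 starts stand for 9 regions. Of the 35 members outside these pairs, 17 had a peak in all 4 libraries and 14 had a covered start in all 4. Among the 7 H2A and H2B genes without such a partner, 3 had a covered start in all 4 libraries. The 2 paired starts missed once were H2BC12 in control replicate 1 and H2AC12 in control replicate 2.

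To compare the amount of signal, tag counts were tested at regions with exactly 1 peak in each library. Of the 46 merged regions within 1 kb of a member, 25 were called in all 4 libraries, against 20.4% of 80551 regions. Regions called in both tazemetostat libraries and neither control numbered 4, against 13.7%, and the reverse was 0, against 0.449%. A further 6 were called in both tazemetostat libraries and 1 control, against 13.2%, and 1 in both controls and 1 tazemetostat library, against 0.883%. Of the 25, 23 had 1 peak in each library and entered the test, 20 of them covering a member's start.

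Tag counts rose under tazemetostat at 14 of the 23 regions as deposited, and at 0 once every library was centred on its own median. With the deposited values, 14 rose and 0 fell (limma on log2(normalised tag count + 1), Benjamini-Hochberg adjusted p under 0.05 over 15383 regions), against 42.7% and 0.247% of all tested regions. The difference was above 0 at 23 of 23, against 95.4%, and both tazemetostat libraries lay above both controls at 21, against 81.6%. The median log2 difference was 0.80 (range 0.43 to 1.45) at the members and 0.70 over all tested regions. When each library was centred on its median over the tested regions, the member median was 0.045 against -0.060 over all, 13 of the 23 differences were above 0, and 0 member regions and 0 of all regions passed in limma (unadjusted p under 0.05: 1 member region higher and 0 lower). The gap of 0.10 between the 2 medians, which centring cannot alter, was 0.015 without tazemetostat replicate 1 (0.63 against 0.61). In bulk libraries, more cells with an open site and more open chromatin per cell cannot be told apart.

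Single libraries decided the count. Without tazemetostat replicate 1 or tazemetostat replicate 2, 0 of the 23 and 0 of all regions passed in limma, while 3 and 11 of the 23 had an unadjusted p under 0.05 for a rise, against 3238 and 5977 of the 15383 regions. Without control replicate 1, 6 of the 23 rose, against 3237 of the 15383. Without control replicate 2, 16 did, against 8398 (54.6%). The difference stayed above 0 at 23 of 23 regions without either tazemetostat library and without control replicate 1. The share over all tested regions was not counted in these fits, and it was 95.4% with all 4 libraries.

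**Figure D2:**
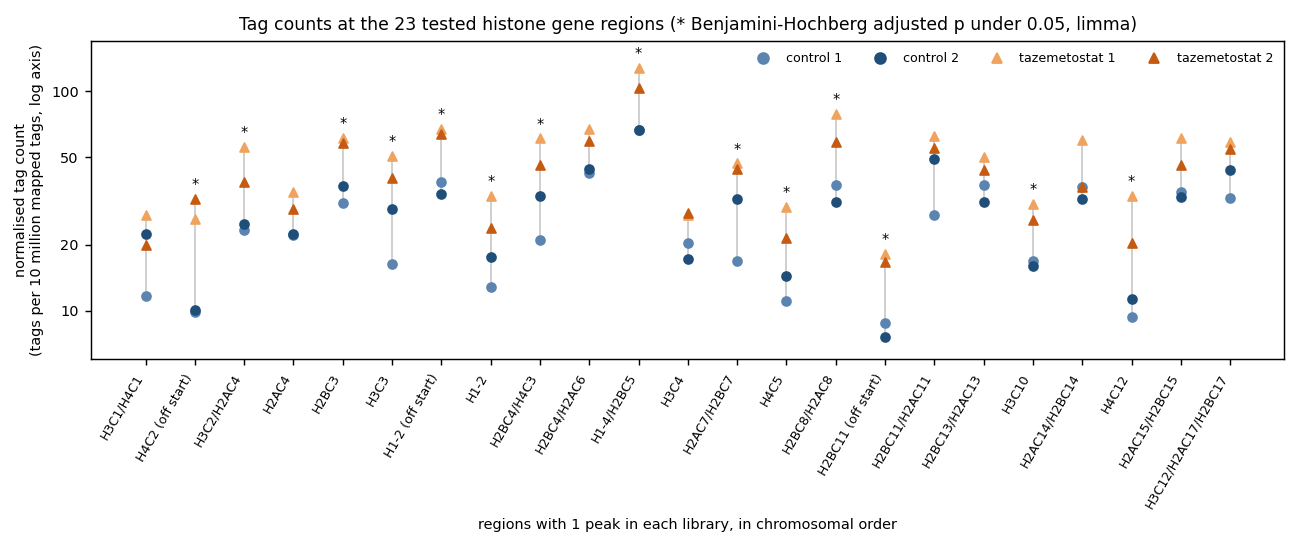
Normalised tag counts (tags per 10 M mapped tags, log axis) at the 23 tested regions in chromosomal order, with 1 point per library and a star where the limma test passed. Both orange triangles lie above both blue circles at 21 regions; the exceptions are H3C1/H4C1 and H2AC14/H2BC14.

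The calls are given by class, on regions that neighbours of different classes partly share, and are to be read against the 42.7% of all tested regions that rose and their median of 0.70. All 3 tested H1 regions rose, with a median log2 difference of 0.84. They lie at H1-2 and H1-4 alone, and only the start region of H1-2 covers the start of an H1 gene. The region by H1-4 covers the start of H2BC5 and is counted under H2B as well. Of the 5 H4 regions 4 rose, with a median of 0.98. Of the 6 H3 regions 3 rose (median 0.66), of the 12 H2B regions 6 rose (0.72) and of the 10 H2A regions 3 rose (0.60). By subcluster, 11 of 15 regions rose in subcluster 1 (median 0.86), 1 of 2 in subcluster 2 (0.84) and 2 of 6 in subcluster 3 (0.60). With median centring, and without either tazemetostat library, 0 regions of any class or subcluster passed. The differences between classes and between subclusters were not tested.

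H4C12, one of the copies encoding H4, had the largest difference among the members whose start is covered. Its region (chr6:27831129-27831723) held 9.31 and 11.3 in the controls and 33.3 and 20.3 under tazemetostat. The tazemetostat libraries were both higher, and the log2 difference was 1.26 (SE 0.31, limma adjusted p = 0.0107). Its peak was 300 bp in both controls and 589 and 459 bp under tazemetostat. H4C2 had the largest difference of all members (1.45, SE 0.30, adjusted p = 0.00564), with 9.89 and 10.1 in the controls and 26.2 and 32.4 under tazemetostat, in a region beyond its 3′ end. The start of H4C2 was covered only in control replicate 2 (14.3) and tazemetostat replicate 1 (20.7).

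H4C12 and H4C11 need care because their sequences are near-identical. Their 300-base promoter windows matched at 295 positions and differed at 5, shown in capitals below (RefSeq, GRCh38.p14, chr6:27823842-27824141 plus for H4C11 and chr6:27831511-27831810 minus for H4C12). Of the 32-base windows within 250 bases of either start, 76.8% had another exact copy in hg38, whereas the median over the members was 1.06%. How tags that fit more than 1 place were handled is not given in the sources used here, so a share of the tags at one gene may come from the other.
H4C11: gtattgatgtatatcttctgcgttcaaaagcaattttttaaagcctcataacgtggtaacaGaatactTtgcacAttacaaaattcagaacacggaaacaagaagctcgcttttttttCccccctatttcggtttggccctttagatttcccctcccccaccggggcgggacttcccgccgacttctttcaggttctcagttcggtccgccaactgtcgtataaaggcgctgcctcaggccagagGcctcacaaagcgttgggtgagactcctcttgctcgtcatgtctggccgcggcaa
H4C12: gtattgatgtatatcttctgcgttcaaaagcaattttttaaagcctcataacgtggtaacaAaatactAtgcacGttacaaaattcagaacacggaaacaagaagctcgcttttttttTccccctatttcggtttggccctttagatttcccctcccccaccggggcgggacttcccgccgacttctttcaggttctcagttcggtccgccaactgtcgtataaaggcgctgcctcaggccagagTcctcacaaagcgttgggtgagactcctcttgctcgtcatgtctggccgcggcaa

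H4C11 itself was called in 3 libraries, at 8.73 in control replicate 1 and at 24.7 and 11.3 under tazemetostat. Other members with repeated windows were H2AC13 and H2AC14, which shared 51.1% of the windows around their starts, H2BC13 (41.1%), H2BC12 (34.9%) and H2BC14 (20.4%). Of the 5 tested regions in which over 10% of the windows were repeated, 1 rose, with a median log2 difference of 0.63. The one that rose was H4C12. The others were regions of divergent pairs, namely H2BC11/H2AC11, H2BC13/H2AC13, H2AC14/H2BC14 and H2AC15/H2BC15, so this split overlaps with the split by pair below. Of the other 18, 13 rose, with a median of 0.85, where 42.7% of all tested regions rose with a median of 0.70.

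Among the H3 genes, which encode the histone that EZH2 methylates, H3C3 had the largest difference. Its region (chr6:26045140-26045733, over the start printed above) held 16.3 and 29 in the controls and 50.9 and 40.3 under tazemetostat. The groups did not overlap, although the controls were far apart, and the log2 difference was 1.02 (SE 0.32, limma adjusted p = 0.0217), but 0.63 without control replicate 1 (adjusted p = 0.146). H3C1 and H4C1 shared the region with the smallest difference in both classes (0.51, SE 0.33, adjusted p = 0.181), which covered the start of H4C1 and left that of H3C1 656 bases away. Its values were 11.6 and 22.3 in control cells and 27.2 and 20 in treated cells, so the groups overlapped. The difference was 0.95 without control replicate 2 and 0.063 without control replicate 1.

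H2BC5, an H2B gene, lay in the widest tested region. That region (chr6:26157163-26158465), next to H1-4, held 66.3 and 66.8 in the controls and 128 and 103 under tazemetostat. The control values were close together and far below both tazemetostat values, and the region rose by a log2 difference of 0.78 (SE 0.30, limma adjusted p = 0.0416), which no longer passed without control replicate 1 (0.77, adjusted p = 0.0789). A region over the start of H4C3, which also lies inside the long H2BC4 model, held 20.9 and 33.2 in the controls and 61 and 46.3 under tazemetostat and also rose (0.98, SE 0.31, adjusted p = 0.0232), but did not pass without control replicate 1 (0.66, adjusted p = 0.125).

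The shared promoters of the divergent pairs were then set beside the other member regions. Of the 8 pair regions with 1 peak in each library, 2 rose and 0 fell, with a median log2 difference of 0.60 (range 0.43 to 0.98), although the tazemetostat libraries lay above both controls at 7 of the 8. Of the other 15 member regions, 12 rose, with a median of 0.86 (range 0.50 to 1.45). The pair regions held more tags, with medians of 35.8, 32.6, 60.5 and 50.3 in the 4 libraries against 16.9, 22.3, 33.3 and 29. Over the genome, 33.6% of tested regions with a mean tag count under 20 rose, 50.8% of those from 20 to 40 and 41.8% of those from 40 to 80. The split by pair was chosen after the values were seen and was not tested, nor was the part that tag count or repeated sequence plays in it.

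H2BC8/H2AC8 had the largest difference among the pairs. Its region (chr6:26216301-26217492), around the promoter printed above with its octamer, TATAAA and 3 CCAAT matches, held 37.2 and 31.1 in the controls and 79.1 and 58.7 under tazemetostat. Both groups were well apart, and the region rose by a log2 difference of 0.98 (SE 0.30, limma adjusted p = 0.0205). H2AC7/H2BC7 was the other pair that rose, from 16.9 and 32.4 to 46.9 and 44.4 (0.93, SE 0.32, adjusted p = 0.0305), with controls that lay far apart, and did not pass without control replicate 1 (0.48, adjusted p = 0.254).

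The pair with the smallest difference was H2AC14/H2BC14, at 36.6 and 32.4 in the controls and 60 and 36.5 under tazemetostat (0.43, SE 0.31, limma adjusted p = 0.225). Its tazemetostat replicate 2 lay at the level of control replicate 1. H2BC4/H2AC6 held 42.5 and 44.1 in the controls and 67 and 59.1 under tazemetostat, without overlap, and did not pass (0.53, SE 0.29, adjusted p = 0.125). The region shared by H2AC17, H2BC17 and H3C12 held 32.6 and 43.7 against 59 and 54.6 (0.58, SE 0.30, limma adjusted p = 0.106). Its difference was 0.78 without control replicate 2 and 0.37 without control replicate 1. The 3 remaining tested pair regions had log2 differences from 0.45 to 0.67 with limma adjusted p from 0.0823 to 0.190. Among them, the difference at H2BC11/H2AC11 was 1.08 without control replicate 2 and 0.25 without control replicate 1. H2BC12/H2AC12 had 2 peaks in control replicate 2 and was not tested; its summed values were 9.31 and 18.9 in the controls and 32.8 and 30.5 under tazemetostat, without overlap.

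Of the tazemetostat-only regions, 2 reached the start of a member. At H4C8 the start region (chr6:26285116-26285951) held 20.7 and 15.4 under tazemetostat. The merged region at H3C7 and H2BC9 (chr6:26249842-26250701) spanned the whole H3C7 gene and lay 913 bases from the start of H2BC9. It held 9.57 and 17.7 and covered the H3C7 start only in tazemetostat replicate 2. Beside the H2BC4/H2AC6 promoter, a region held 37.3 and 25.2. The last, at 9.07 and 7.91, lay 88 bases from the start of HFE, a gene of another kind. It is counted here because the H2BC4 gene model, which runs for 37610 bases, spans it. The GENCODE models of 7 members (H2BC4, H2BC5, H2BC6, H2BC11, H2AC6, H2BC15 and H4C8) exceed 5 kb against a median of 495 bases, so their windows span more sequence than those of the short genes.

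Regions missed in 1 control held more under tazemetostat at H3C6, with 10.9 in control replicate 2 and 40.3 and 26.7 in the treated libraries. At H2AC16 the values were 11.8 in control replicate 2 and 22.7 and 11.3 in the treated libraries, so the control lay between them. The control also lay between them in a region off the start of H2AC15 (29.8 in control replicate 2 against 19.1 and 41.8). The same held off the start of H4C8 (8.73 in control replicate 1 against 8.57 and 11.7). At H4C11, given above, and off the start of H4C5 (9.24 in control replicate 2 against 16.6 and 10.9) both treated libraries lay above. H4C4, an H4 gene with 2 peaks in control replicate 1, was not tested and held 18.6 and 20.2 in control cells against 36.8 and 42.2 in treated cells, without overlap.

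Peak width was tested at the same regions. No member region and no region of the genome passed in either direction (limma on log2 width, 0% wider and 0% narrower). At an unadjusted p under 0.05, 2 of the 23 were wider (H4C12 and the region inside H2BC11), against 17.4% of all tested regions, and 0 were narrower, against 0.332%. The member median was 0.12 on the log2 scale (range -0.20 to 0.79) against 0.29 over all, and after centring each library on its median it was -0.24 against -0.070. The median peak width at the members was 585 and 640 bp in the controls and 615 and 558 bp under tazemetostat, whereas that of all tested regions was 409 and 502 against 579 and 585 bp. The pair regions had a median log2 difference in width of -0.027 and the other member regions 0.15.

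Divided by width, the tag density at the members was thus set apart further from that of all tested regions, although its own difference was smaller. The median was 36.5 and 41.7 tags per 10 M per kilobase in the controls and 73.5 and 61.7 under tazemetostat. Over all tested regions it was 36.8 and 37.4 in the controls and 54.4 and 47.2 under tazemetostat. Per kilobase, 19 of the 23 regions rose in limma, against 32.9% of all, with a median log2 difference of 0.66 against 0.41. The member median of the undivided tag counts was 0.80. This fit was not repeated with median centring, with a block or without single libraries. Undivided, 0 of the 23 passed in limma with centring. The widths come from peaks called with fragment lengths of 200 bp in the controls and 144 bp under tazemetostat, and the part this plays was not tested.

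**Figure D3:**
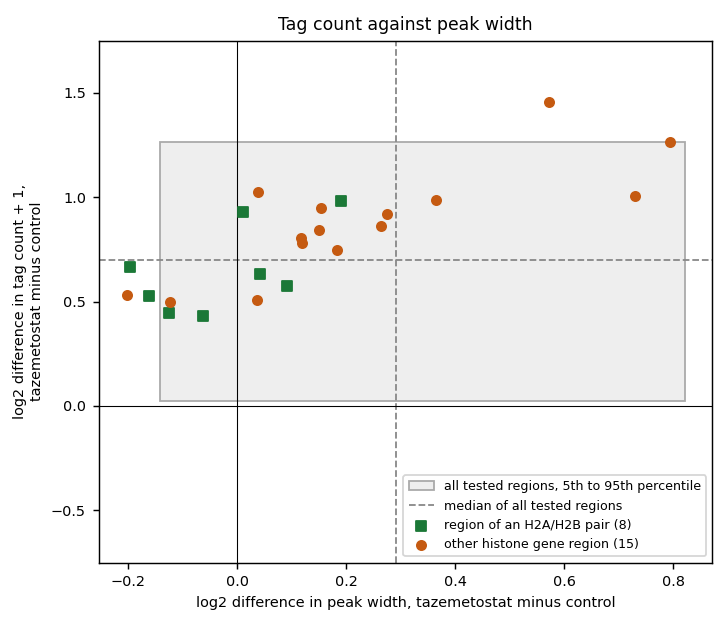
Log2 difference in peak width (x) against log2 difference in tag count + 1 (y), tazemetostat minus control, at the 23 tested member regions, with squares for the H2A/H2B pair regions and circles for the others. Dashed lines give the medians of all 15383 tested regions (0.29 and 0.70) and the grey box their 5th to 95th percentile; most members lie left of the width median.

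The peaks sat mainly upstream of the starts. Over the covered starts the median peak reached 368 and 429 bases upstream in the controls and 387 and 410 under tazemetostat. Downstream it reached 206 and 257 bases in the controls and 259 and 240.5 under tazemetostat. H2B genes had the longest upstream reach, with medians of 494.5, 492, 513.5 and 496 bases in the 4 libraries, where for paired genes the upstream side runs over the partner. At H4 genes the downstream median was the longer one in control replicate 2 (357 bases against 216.5 upstream) and tazemetostat replicate 1 (396 against 243), but not in control replicate 1 (197 against 236) or tazemetostat replicate 2 (289.5 against 308.5).

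**Figure D4:**
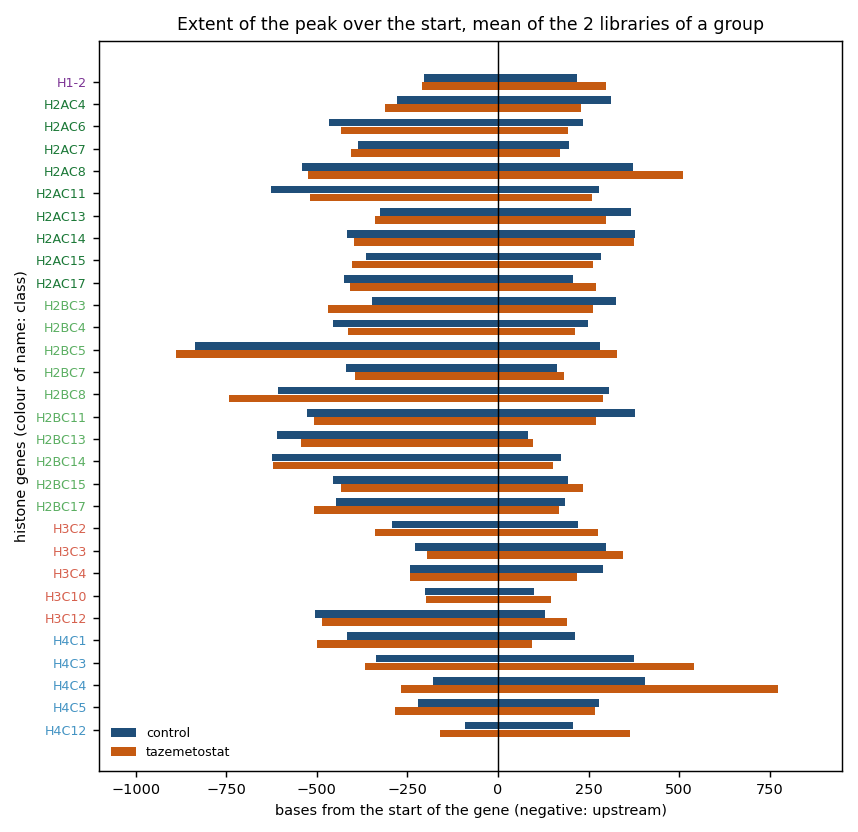
Bases covered upstream (negative) and downstream of the start by the peak over it, as the mean of the 2 libraries of each group, for the 30 members whose start was covered in every library, ordered by class. The upstream part is the longer one at most H2B genes, and of the 5 H4 genes H4C3, H4C4 and H4C12 have a longer downstream bar under tazemetostat, H4C1 a shorter one and H4C5 one that is nearly equal.

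The fold of the peaks over the surrounding 10 kb, which the caller required to reach 4, was low at the histone genes. At the 23 regions its median was 5.47 and 4.8 in the controls and 4.62 and 5.1 under tazemetostat. Over all tested regions it was 6.96 and 6.1 in the controls and 6.89 and 6.16 under tazemetostat. The part that close neighbours play in this was not tested.

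Other genes were set beside the cluster, and beside the 42.7% of all tested regions that rose with a median of 0.70. The interval holds 138 further regions outside the members' windows, of which 24 were tested and 14 rose (median log2 difference 0.83). Of 14 replication-dependent histone genes elsewhere in the genome, 11, 12, 11 and 11 had a peak in the 4 libraries. Over all protein-coding genes the shares were 53.3%, 60%, 72.6% and 70%. Of the 5 tested regions at these 14 histone genes 2 rose, with a median of 0.72. H2AC18 held 14.5 and 17.6 in the controls and 44.3 and 30.5 under tazemetostat (1.15, limma adjusted p = 0.0130). Of 9 tested regions at the 12 replication-independent histone genes 1 rose, at H2AZ2, and their median was 0.54.

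Among 11 genes for histone gene expression and mRNA processing, 3 of 7 tested regions rose, near the share of 42.7% over all regions, with a median of 0.75. These were CASP8AP2 (0.96, adjusted p = 0.0242), ZNF473 (1.11, 0.0221) and CPSF3 (1.01, 0.0177), which encode a cofactor of histone gene expression, a protein of the histone pre-mRNA complex and the nuclease that cuts that mRNA. NPAT held 39 and 50.8 in the controls and 80.1 and 58 under tazemetostat, without overlap (0.60, limma adjusted p = 0.0989). A region 104 bases upstream of the start of SLBP was called only under tazemetostat, at 39.3 and 20.3. Of 7 tested regions at 8 genes for histone chaperones and the histone acetyltransferase HAT1, 2 rose, at CHAF1B and HAT1, with a median of 0.68.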

How the data were processed

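The 4 ATAC-seq libraries were grouped by their titles. The authors' processing, per the labels and methods, was trimming (Trim Galore 0.6.6), alignment to hg38 (Bowtie2 2.3.5.1) and peak calling in each library on its own (HOMER 4.11.1). Peaks of 300 bp were stitched into regions of variable length, and per the file headers each needed a fold of 4 over 10 kb and a p-value of 0.0001. A false discovery rate of 0.001 stands in the headers and one of 0.05 in the methods. Normalised tag counts were used as deposited, a signal in tags of a peak per 10 M mapped tags. The deposited peak score, clonal fold ratio and local p-value were not used, and the deposited local fold ratio served as a filter in 1 alternative. A normalised tag count of 10 stands for 17.2, 23.8, 19.8 and 26.6 tags in the 4 libraries, the lowest listed were 6.4, 5.04, 5.04 and 4.89, and peak lists give no value below the caller's limits.

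Peaks overlapping by at least 1 bp were merged across libraries. limma 3.58.1 (R 4.3.3, lmFit and eBayes) was run on log2(normalised tag count + 1), on which differences of low values come out too small, and on log2 width, over the 15383 regions with exactly 1 peak in each library, with p-values adjusted by Benjamini-Hochberg and called under 0.05. On simulated data with 200 of 15383 regions changed 3-fold, limma recovered 100% with 3.85% false calls. The simulation gave every region the same spread, shifted no library as a whole and changed few regions, by more than any tested member region differed. These rates therefore do not carry over to the calls made here. Joins and counts used Python 3.11.15, pandas 2.3.3 and numpy 2.4.6. Promoters came from RefSeq and the shared promoter from hg38. The members and lists were chosen with earlier results of these data known. Named with values were all H1 genes, the largest and smallest difference and the highest tag count in each other class and members with a region in 1 group only. Members without a peak were named only, and H4C2, H2AC7/H2BC7 and the other genes given were chosen after their values were seen.

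Same-numbered replicates did not deviate together (correlation -0.0025 for tag counts and 0.013 for width over 15383 regions), so no block was used. Alternatives were other gene windows, pseudocounts, merging, centring, filters, peaks per library, a replicate block and leaving out each library.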

Additional observations from a re-analysis of the deposited data

How the results depend on the processing

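The difference of 5.5 members with a peak was 4.5 with windows of 100 bp and 7.5 with 5 kb, 1.5 with an equal number of peaks and -1.5 with a local fold of at least 8, and ranged from 4.5 to 6 without 1 library. Members with a tazemetostat-only region numbered 5, and 3 with 100 bp, 8 with 5 kb, 1 with a local fold of at least 8, 3 with an equal number of peaks and 6 to 10 without 1 library, where the definition needs fewer libraries. Members with a control-only region numbered 0, 2 with an equal number of peaks and 0 to 2 without 1 library. Of the 23 regions, 14 rose, 0 with median centring and 0 to 16 without 1 library. Counts were 14 with a pseudocount of 0.5 or 5, 10 of 19 with a mean of at least 20 (54.1% of all regions), 15 of 25 with summed peaks and 15 of 24 with peaks merged at 50% overlap. No member region fell in any of the tag count fits. None changed in width in the fits of width, run with centring, 50% overlap, the block and without each library. With the replicate number as a block, 10 of the 23 rose, against 32.8% of all regions, and the 4 regions that no longer passed were H2BC3, the 3′ region of H1-2, H1-4/H2BC5 (adjusted p = 0.0676) and H3C10. The numbers did not pair the samples. edgeR and DESeq2, planned on whole tags, were not run, because the check of whole tags in the deposited values did not pass.

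With median centring the tag count differences of H3C1/H4C1 (-0.25), H2BC4/H2AC6 (-0.23), H2AC14/H2BC14 (-0.33) and H3C12/H2AC17/H2BC17 (-0.18) changed sign and the other 6 named regions no longer passed. Width differences changed sign with centring at H3C1/H4C1 (-0.33), H3C3 (-0.32), H1-2 (-0.097), H1-4/H2BC5 (-0.24), H2BC8/H2AC8 (-0.17) and H3C12/H2AC17/H2BC17 (-0.27). Without 1 library they changed sign at H3C1/H4C1 (-0.57 to 0.64; -0.57 without control replicate 1 and -0.090 without tazemetostat replicate 1), H3C3 (-0.081 to 0.16, the lowest without control replicate 1) and H2AC14/H2BC14 (-0.31 to 0.19, the highest without tazemetostat replicate 2). None of these widths passed the test. The causes were not tested. With 2 libraries per group the spread rests on few values, and positions under the caller's limits could not be compared. Gaps of 100 kb gave the same 3 subclusters.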
